A study of Mus musculus with 6 samples.

Results

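The RNA exosome core subunits were followed in RNA from mouse whole testis at postnatal day 14. They were chosen by symbol as Exosc1 to Exosc10, which gave 10 of the 55353 genes in the deposited tables. Whole testes of 3 mutant animals (Rnu11-cKO, a conditional deletion of Rnu11) were compared with testes of 3 control animals, whose genotype is labelled only as control. Rnu11 encodes U11, the small nuclear RNA that recognises the 5′ splice site of minor introns as part of the minor spliceosome. The sources used here name neither the Cre driver nor the cells that lost Rnu11, so cells without a deletion may be present in the mutant testes. Expression is given as TPM (a level scaled by transcript length and by the total of the library), as the authors deposited it, per gene and per annotated isoform. The sequencing depth cannot be read from TPM and is unknown.

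The RNA exosome degrades and trims RNA from the 3′ end in the nucleus and the cytoplasm. Its core is a ring of RNase PH-like proteins (Exosc4 to Exosc9), which in mammals has no catalytic activity of its own, topped by a cap of RNA-binding proteins (Exosc1, Exosc2 and Exosc3). RNA is threaded through the core to the nuclease Dis3, and in the nucleus Exosc10 adds a second nuclease. Exosome activity processes ribosomal and small nuclear RNA and clears unspliced or otherwise faulty transcripts. In mouse testis Exosc10 is known to be needed in germ cells for normal spermatogenesis. Minor introns are a small class with their own conserved 5′ splice site and branch site, and Exosc2 and Exosc5 each hold one.

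The minor introns of these 2 members are shown because the comparison of isoforms that splice them with isoforms that retain them turns on them. The motif was G or A followed by TATCCTT at the 5′ splice site and TCCTTAA or TCCTTGA at the branch site, read on the strand of the gene, with at most 1 mismatch in each. Bases were read from GENCODE M21 transcripts (build GRCm38) that hold the intron within an exon. Of 14663 introns that could be read in this way, 60 had both motifs. Each line below gives the first 30 or the last 50 bases of an intron, 5′ to 3′, with the 8 bases at the 5′ splice site or the 7 bases of the branch site in capitals. The Exosc2 intron lies at chr2:31675905-31676667 on the plus strand (763 bases), and is intron 5 of the coding isoform Exosc2-201, which has 9 exons. The Exosc5 intron lies at chr7:25664449-25665420 on the plus strand (972 bases), and is intron 3 of the coding isoform Exosc5-201. The next intron of Exosc5, at chr7:25665562-25666252, does not have the motifs and is given for contrast.
Exosc2 intron 5, start: GTATCCTGcacctcattctctctcccccac
Exosc2 intron 5, end: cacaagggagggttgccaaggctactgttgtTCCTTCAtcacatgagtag
Exosc5 intron 3, start: GTATCCTTtcccagccctctcctccaggaa
Exosc5 intron 3, end: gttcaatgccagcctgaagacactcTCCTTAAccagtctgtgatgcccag
Exosc5 intron 4, start: GTAGGGTTgccgcttggcgtgcctccaggc
Exosc5 intron 4, end: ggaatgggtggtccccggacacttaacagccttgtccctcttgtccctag
Counting from 1 at the first base of each motif, the Exosc2 intron differed at the 5′ splice site by T8G and at the branch site by R6C, where R stands for A or G. The Exosc5 intron matched both motifs in full.

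The targeted gene, Rnu11 (chr4:132270080-132270213), had 196, 393 and 203 TPM in the mutant testes, against 614, 576 and 550.3 TPM in the control testes. The groups did not overlap, and the second mutant library was the highest of the mutants. The log2 difference was −1.21 (SE 0.26; adjusted p = 0.29 by limma over 17959 genes). With each library left out in turn it ran from −1.53 to −1.03 with adjusted p-values of 0.039 to 0.61, and it passed the threshold only without the second mutant library. In TPM as deposited, the summed levels of cell type markers were without overlap for early meiotic prophase, Sertoli cells, and differentiating and undifferentiated spermatogonia. When each library was divided by its median-ratio scaling factor, the separations of early meiotic prophase and undifferentiated spermatogonia were lost. The third mutant library then stood above the second control library for early meiotic prophase. For undifferentiated spermatogonia the second mutant library then fell below the second control library. For pachytene, spermatid, Leydig, peritubular, macrophage and endothelial markers the sums overlapped between the groups. Markers of early meiotic prophase summed to 136 to 182 TPM in mutants and 186 to 257 TPM in controls, and those of differentiating spermatogonia to 68.2 to 75.9 TPM in mutants and 82.0 to 89.2 TPM in controls. Pachytene markers summed to 30.3, 35.2 and 43.9 TPM in mutants, against 83.9, 31.4 and 82.7 TPM in controls, so the second control library stood with the mutants and apart from the other controls. Sertoli markers summed to 1434 to 1899 TPM in mutants and 1065 to 1135 TPM in controls, and Leydig markers to 199 to 319 TPM in mutants and 104 to 200 TPM in controls. Most of the Sertoli sum was Clu, with a mean of 1330 TPM in mutants and 849 TPM in controls. Of the 6 Sertoli markers, 4 were higher in mutants without overlap, and Wt1 and Rhox5 overlapped. Of the 5 Leydig markers, Cyp17a1, Cyp11a1 and Star were higher in mutants without overlap as deposited, and Hsd3b1 and Insl3 overlapped. Divided by the median-ratio factors, the first mutant library falls below the second control library for Cyp17a1 and Cyp11a1. Undifferentiated spermatogonial markers summed to 37.1 to 40.2 TPM in mutants and 29.5 to 36.2 TPM in controls, and spermatid markers to at most 1.03 TPM in any library. Of the 4 undifferentiated spermatogonial markers, only Gfra1 was higher in mutants without overlap as deposited, and Zbtb16, Etv5 and Ret overlapped. In these bulk samples fewer cells of a type and less RNA per cell cannot be told apart, and the part of cell composition in the values below was not tested.

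No exosome subunit passed the test at the gene level. Of the 9 members with a mean of at least 1 TPM, 0 had an adjusted p under 0.05 in limma, where 0.0278% of all tested genes did (5 of 17959), and 0 had an unadjusted p under 0.05, where 16.1% of all genes did. The 10 members together summed to 159, 178 and 151 TPM in mutant testes, against 153, 159 and 156 TPM in control testes, and these ranges overlap. The median log2 difference of the 9 members was 0.05, beside 0.09 over all tested genes. As deposited, 7 members had a log2 difference above 0 and 2 below, where 66.4% of all tested genes were above 0. With median-ratio scaling 3 were above 0 and the median was −0.06, beside 0.00 for all genes, and with TPM rescaled over protein-coding genes 2 were above 0 and the median was −0.09, beside −0.02 for all genes. The last scaling thus moved the median of all genes by more than 0.1, and the direction of small differences below depends on the scaling.

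**Figure D1:**
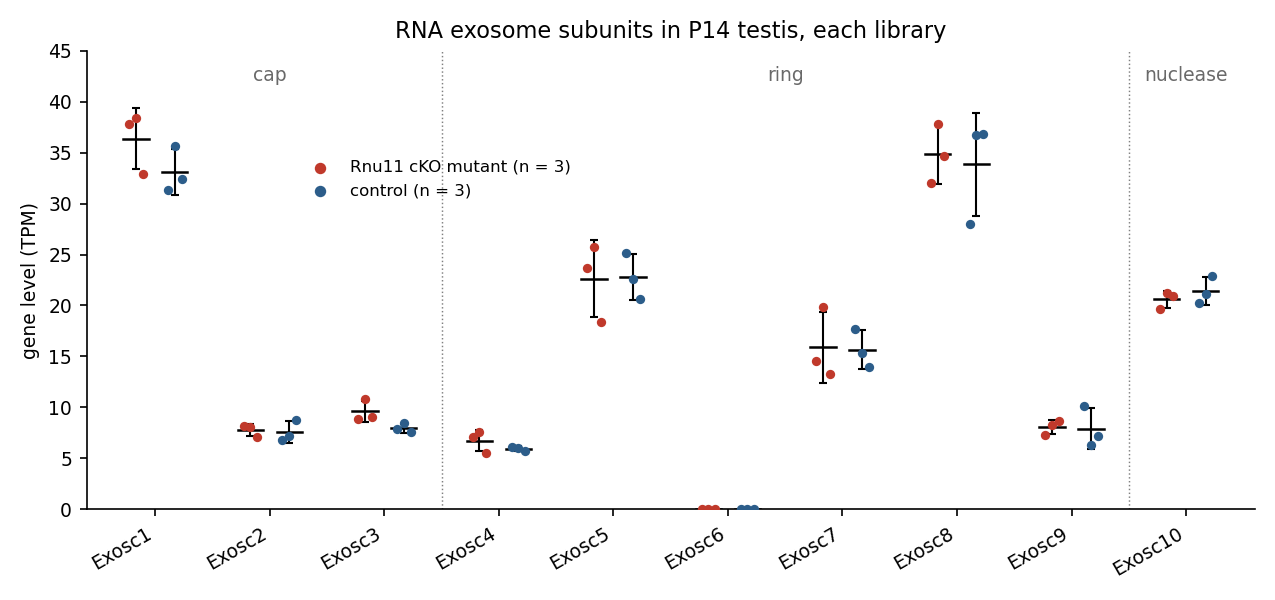
Gene level in TPM (vertical axis) of each of the 10 exosome subunits (horizontal axis) in 3 mutant libraries (red, left of each pair) and 3 control libraries (blue, right), with the mean (bar) and SD (whiskers). The groups overlap for each subunit except Exosc3, whose mutant values sit above the control values, and Exosc6 is listed at 0 in all 6 libraries.

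Among the cap subunits, Exosc3 was the only member whose groups did not overlap. Exosc3 (Rrp40 in yeast; chr4:45316613-45342732, minus strand) had 8.90, 10.8 and 9.09 TPM in mutants, against 7.84, 8.45 and 7.58 TPM in controls. In TPM as deposited, each mutant library stood above each control library. This separation depends on the scaling. Divided by the median-ratio factors (1.06 and 0.99), the first mutant library falls below the second control library. The log2 difference of Exosc3 was 0.24 (SE 0.11, adjusted p = 0.32 by limma) and stayed between 0.11 and 0.29 under every alternative run. It was 0.14 with median-ratio scaling and 0.11 with protein-coding scaling. Of all tested genes, 14.5% had groups that did not overlap with mutants higher and 5.77% with mutants lower, so 1 of 9 members is close to that background.

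The other cap subunits overlapped between the groups. Exosc1 (Csl4 in yeast; chr19:41922292-41933423, minus strand) had 37.8, 38.4 and 32.9 TPM in mutants, against 31.3, 35.6 and 32.4 TPM in controls. Its log2 difference was 0.13 (SE 0.10, adjusted p = 0.50 by limma). Exosc2 (Rrp4 in yeast; chr2:31670715-31681349, plus strand) had 8.18, 8.10 and 7.11 TPM in mutants, against 6.78, 7.24 and 8.75 TPM in controls. The third control library was the highest of the 6, and the log2 difference of 0.04 (SE 0.12, adjusted p = 0.88 by limma) was smaller than its error. The cap made up 34.5%, 32.3% and 32.6% of the summed TPM of all members in mutants, against 29.9%, 32.2% and 31.3% in controls. These shares do not overlap, but the second mutant library and the second control library lie within 0.1 percentage points of each other. Exosc1, whose groups overlapped, averaged 36.4 TPM of a cap sum of 53.8 TPM in mutants, and 33.1 of 48.7 TPM in controls. The total of all members counts Exosc6, which was listed at 0 in all libraries, as 0.

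The ring subunits that were measured, Exosc4, Exosc5, Exosc7, Exosc8 and Exosc9, overlapped between the groups. Exosc4 (Rrp41 in yeast; chr15:76327397-76330677, plus strand) had 7.08, 7.58 and 5.55 TPM in mutants, against 6.15, 5.97 and 5.70 TPM in controls. The third mutant library was the lowest and the other mutant libraries the highest of the 6, and the log2 difference was 0.15 (SE 0.12, adjusted p = 0.54 by limma). The opposite-strand gene Oplah, which encodes 5-oxoprolinase and overlaps Exosc4 by 619 bases, had 30.2, 31.3 and 24.8 TPM in mutants, against 17.6, 22.6 and 20.8 TPM in controls. Whether reads were shared between Exosc4 and Oplah was not tested, since no source used here states the strand setting of the quantification.

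Exosc5 (Rrp46 in yeast; chr7:25659164-25671368, plus strand), the other member with a minor intron, had 23.7, 25.8 and 18.4 TPM in mutants, against 25.1, 22.6 and 20.6 TPM in controls. The mutant libraries included both the highest and the lowest value, and the log2 difference was −0.02 (SE 0.14, adjusted p = 0.96 by limma). Exosc7 (Rrp42 in yeast; chr9:123113215-123136129, plus strand) had 14.5, 19.9 and 13.3 TPM in mutants, against 17.7, 15.3 and 13.9 TPM in controls, with a log2 difference of 0.01 (SE 0.16). The second mutant library was the highest for Exosc5 and Exosc7, as it was for Exosc1, Exosc3, Exosc4 and Exosc8 but not for Exosc2, Exosc9 or Exosc10. It also had the largest median-ratio scaling factor of the libraries (1.10). Exosc8 (Rrp43 in yeast; chr3:54728678-54735393, minus strand) had 32.0, 37.8 and 34.7 TPM in mutants, against 28.0, 36.7 and 36.8 TPM in controls, with a log2 difference of 0.05 (SE 0.13). Exosc9 (Rrp45 in yeast; chr3:36552606-36565727, plus strand), an autoantigen in human polymyositis and scleroderma overlap, had 7.34, 8.26 and 8.69 TPM in mutants, against 10.2, 6.35 and 7.16 TPM in controls. The control libraries of Exosc9 included both the highest and the lowest value, and its log2 difference was 0.05 (SE 0.17). The adjusted p-values of Exosc7, Exosc8 and Exosc9 by limma were 0.99, 0.87 and 0.89.

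Exosc6 (Mtr3 in yeast; chr8:111056339-111057664, plus strand), the remaining ring subunit, was listed at 0 in all 6 libraries. Its annotated span of 1326 bases lies entirely within the last exon of Aars-201 (chr8:111055019-111057664), an isoform of the alanyl-tRNA synthetase gene Aars on the same strand. Aars-201 had 9.96, 10.998 and 9.71 TPM in mutants, against 9.17, 9.43 and 9.73 TPM in controls. Whether reads from Exosc6 were assigned to Aars was not tested, and a listed 0 can be a failed estimate, so no fold is given for Exosc6.

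Exosc10 (Rrp6 in yeast; chr4:148558429-148582401, plus strand), the nuclear exosome nuclease, had 19.7, 21.2 and 20.9 TPM in mutants, against 20.3, 21.1 and 22.9 TPM in controls. The groups overlapped, and the log2 difference was −0.05 (SE 0.09, adjusted p = 0.76 by limma), which remained below 0 under every alternative run.

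Across members the mean level over the 6 libraries, in TPM, ran from Exosc1 (34.7) and Exosc8 (34.3) through Exosc5 (22.7), Exosc10 (21.01) and Exosc7 (15.8) to Exosc3 (8.78), Exosc9 (7.996), Exosc2 (7.69) and Exosc4 (6.34). Exosc1 and Exosc8 overlapped in their library values, as did Exosc5, Exosc10 and Exosc7. The 4 least abundant measured subunits also overlapped with each other, in a range of 5.55 to 10.8 TPM.

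The partners of the exosome were taken from lists of 24 genes, all of which were tested. Of these, 0 passed the adjusted threshold in limma, where 0.0278% of all tested genes did. An unadjusted p under 0.05 was found for 1 of 24 partners, where 16.1% of all tested genes had one. The log2 difference was above 0 for 14 and below 0 for 10 as deposited, above 0 for 9 with median-ratio scaling and for 4 with protein-coding scaling, and the median was 0.05 beside 0.09 for all genes. Dis3, the main catalytic subunit of the nuclear exosome, had 30.9, 31.4 and 27.5 TPM in mutants, against 27.6, 34.3 and 29.6 TPM in controls, a log2 difference of −0.02 (SE 0.11). Dis3l, its cytoplasmic counterpart, had 7.29, 9.41 and 7.504 TPM in mutants, against 12.6, 7.38 and 12.3 TPM in controls. The second control library of Dis3l lay among the mutants, as it did for the summed pachytene markers. For Dis3l the log2 difference was −0.35 (SE 0.20, adjusted p = 0.40 by limma). With each library left out in turn it ran from −0.57, without the second control library, to −0.23, without the first. The adjusted p-values of these runs by limma were 0.14 to 0.70. The part of the pachytene cells in the Dis3l values was not tested.

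Among the 12 nuclear cofactors, 7 had a log2 difference above 0 as deposited, and the groups did not overlap for 1 of them. This was Zcchc7, a zinc-knuckle protein of the TRAMP-like complex that adds short tails to nuclear RNA, with 27.6, 32.7 and 26.6 TPM in mutants, against 25.4, 25.2 and 23.8 TPM in controls (log2 difference 0.21, SE 0.10). Among the 4 genes of the cytoplasmic SKI pathway, 2 were above 0. Ttc37, the scaffold of the SKI complex that feeds RNA to the cytoplasmic exosome, had 8.83, 11.3 and 8.36 TPM in mutants, against 7.90, 7.75 and 8.33 TPM in controls (log2 difference 0.21, SE 0.12). For Zcchc7 and Ttc37 alike, the groups were without overlap only in TPM as deposited. With median-ratio scaling the first mutant library falls below the first control library, and the log2 difference was 0.11 for each.

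Among the 6 other exoribonucleases, 5 were above 0 as deposited, and Eri1 was the partner with an unadjusted p under 0.05. Eri1, a 3′ exonuclease that trims histone mRNA ends and 5.8S ribosomal RNA, had 11.04, 9.175 and 10.98 TPM in mutants, against 11.6, 13.4 and 14.0 TPM in controls. Its mutant libraries all stood below its control libraries, with a log2 difference of −0.29 (SE 0.11, adjusted p = 0.30 by limma). The 5′ exonuclease Xrn1 had 13.9, 16.4 and 14.3 TPM in mutants, against 13.4, 13.8 and 13.8 TPM in controls (log2 difference 0.11, SE 0.09). Dis3l2, which degrades RNA with uridine tails, had 7.74, 8.42 and 7.72 TPM in mutants, against 7.08, 7.39 and 7.63 TPM in controls (log2 difference 0.10, SE 0.09). Both were without overlap, and both had values of −0.02 or −0.03 with protein-coding scaling. In TPM as deposited, 4 of 24 partners had groups without overlap and mutants higher and 1 of 24 with mutants lower, beside the 14.5% and 5.77% of all tested genes.

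**Figure D2:**
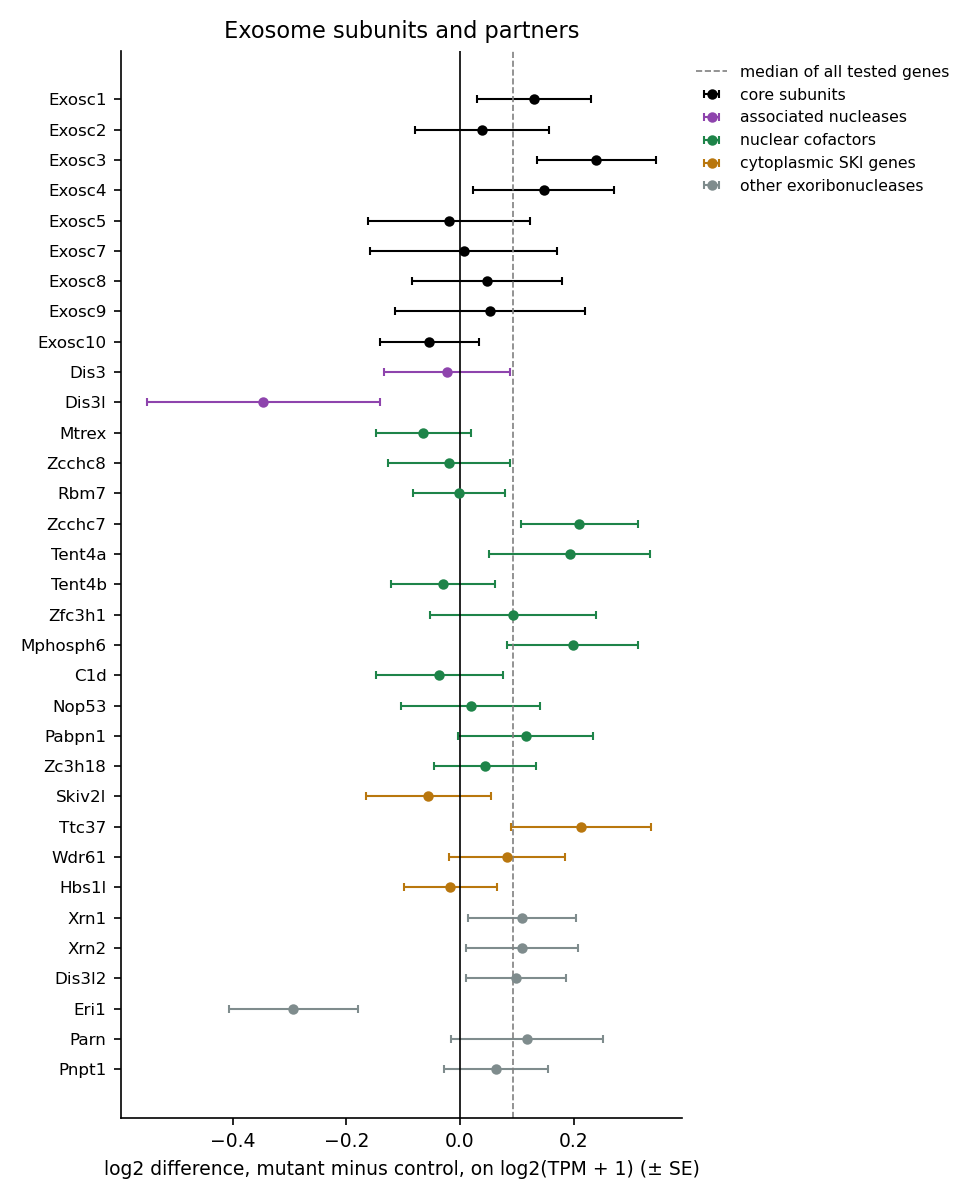
Log2 difference, mutant minus control, on the log2(TPM + 1) scale (horizontal axis, points with SE) for the 9 tested exosome subunits and the 24 partners (rows, coloured by list), with the median of all tested genes as a dashed line. As deposited 7 of 9 subunits lie above 0, but 3 with median-ratio scaling and 2 with protein-coding scaling, and Dis3l and Eri1 have the most negative values among the partners.

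The 10 members have 58 annotated isoforms, of which 30 averaged at least 1 TPM and 7 were listed at 0 in all libraries. Of the 30 tested isoforms, 0 passed the adjusted threshold in limma, where 0.0136% of all isoforms did, and 1 had an unadjusted p under 0.05, where 11.2% did. Groups did not overlap for 4 of the 30 with mutants higher and for 0 with mutants lower, beside 11.6% and 5.17% of all tested isoforms. The log2 differences of the 30 lay between −0.32 and 0.51, and 17 were above 0, where 63.0% of all tested isoforms were. Their median was 0.01, beside 0.08 over all tested isoforms.

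Exosc2-205, which retains the minor intron, was the isoform with the largest log2 difference among the 30. It had 2.06, 1.72 and 1.34 TPM in mutants, against 0.839, 0.945 and 0.904 TPM in controls. All mutant libraries stood above all control libraries, with a log2 difference of 0.51 (SE 0.15, adjusted p = 0.43 by limma). The coding isoform Exosc2-201 had 4.08, 4.93 and 3.65 TPM in mutants, against 4.73, 4.30 and 4.77 TPM in controls, which overlap (log2 difference −0.11, SE 0.13). Exosc2-204, a short processed transcript that splices the minor intron, had 0.474, 0.132 and 0.392 TPM in mutants, against 0.470, 0.792 and 1.79 TPM in controls. Exosc2-202, annotated as a target of nonsense-mediated decay, uses an acceptor 3 bases upstream and gives an intron of 760 bases, and it had 0.145, 0.432 and 0.247 TPM in mutants, against 0.0455, 0.131 and 0.117 TPM in controls. Exosc2-204 and Exosc2-202 were under the filter of 1 TPM and were not tested at the isoform level.

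**Figure D3:**
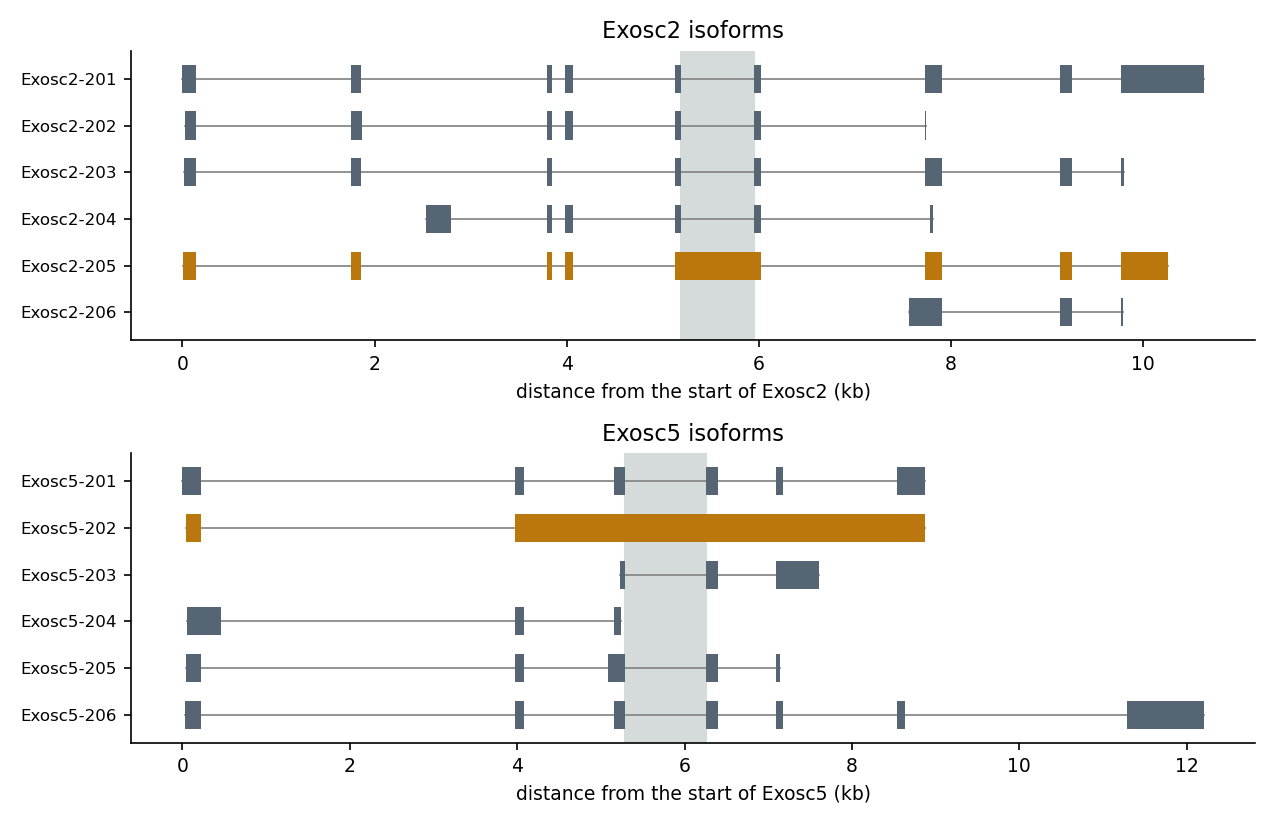
Annotated isoforms of Exosc2 (upper panel) and Exosc5 (lower panel), drawn to scale as exons (boxes) and introns (lines) against distance from the gene's start in kb. The minor intron is shaded, and the isoforms that hold it within an exon, Exosc2-205 and Exosc5-202, are drawn in brown and the rest in grey.

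As a share of the gene, Exosc2-205 made up 21.8% ± 3.16 of Exosc2 in mutants and 11.9% ± 1.42 in controls (SD, n = 3 each). The log2 difference of this share against the other isoforms was 0.97 (SE 0.20, adjusted p = 0.72 by limma). Exosc2-204 made up 4.31% ± 2.33 of Exosc2 in mutants and 12.8% ± 6.91 in controls (SD, n = 3 each), a log2 share difference of −1.47 (SE 0.53, adjusted p = 0.86 by limma). The coding isoform Exosc2-201 made up 54.0% ± 5.98 in mutants and 61.2% ± 7.82 in controls (SD, n = 3 each), with overlapping groups and a log2 share difference of −0.42 (SE 0.30). Isoforms annotated as retained introns together took 42.6%, 32.2% and 39.6% of Exosc2 in mutants, against 22.6%, 27.8% and 23.8% in controls, without overlap. For Exosc1, Exosc5, Exosc7, Exosc8, Exosc9 and Exosc10 the same class overlapped between the groups, and for Exosc10 it averaged 13.6% in mutants and 17.9% in controls.

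Of 33 tested isoform shares of members, 0 passed the adjusted threshold in limma, where 0.0112% of all shares did, and 2, those of Exosc2-205 and Exosc2-204, had an unadjusted p under 0.05, where 5.78% of all shares did. On simulated data the share fit called only 1% of log2 changes of 1, so a share that was not called can still differ. Groups did not overlap for 2 of the 33 with mutants higher, beside 5.73% of all tested shares, and for 1 with mutants lower, beside 6.04%. The second share with mutants higher was that of Exosc5-202, which retains the minor intron of Exosc5. It made up 14.1% ± 1.18 of Exosc5 in mutants and 11.2% ± 0.587 in controls (SD, n = 3 each), a log2 share difference of 0.37 (SE 0.16, adjusted p = 0.86 by limma). In TPM, Exosc5-202 had 3.53, 3.28 and 2.70 in mutants, against 2.65, 2.65 and 2.34 in controls, without overlap (log2 difference 0.23, SE 0.12). The coding isoform Exosc5-201 had 15.8, 17.4 and 12.2 TPM in mutants, against 18.2, 14.9 and 14.3 TPM in controls, which overlap (log2 difference −0.06, SE 0.16).

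**Figure D4:**
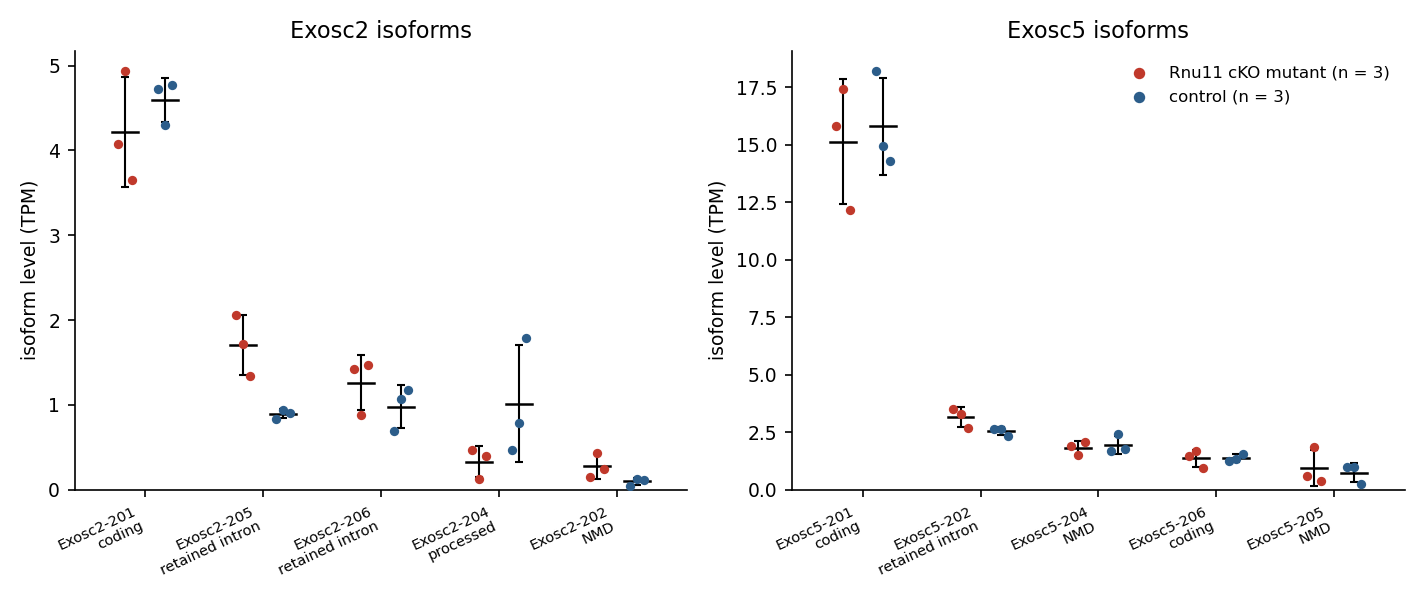
Isoform level in TPM (vertical axes) of the 5 most abundant isoforms of Exosc2 (left) and Exosc5 (right) in 3 mutant libraries (red, left of each pair) and 3 control libraries (blue, right), with mean (bar) and SD (whiskers). The retaining isoforms Exosc2-205 and Exosc5-202 stand higher in each mutant library than in each control library, and the coding isoforms overlap.

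The other isoforms whose groups did not overlap in TPM as deposited were the coding Exosc3-201 and Exosc7-207. Divided by the median-ratio factors, the first mutant library of each falls below its first control library. Exosc3-201 had 6.94, 8.70 and 7.72 TPM in mutants, against 6.71, 6.62 and 5.81 TPM in controls (log2 difference 0.25, SE 0.12). Exosc7-207, annotated as a retained intron, had 1.77, 1.87 and 1.71 TPM in mutants, against 1.60, 1.55 and 1.59 TPM in controls (log2 difference 0.11, SE 0.11). The main coding isoforms of the remaining members overlapped between the groups. As deposited, their log2 differences were 0.17 for Exosc1-201, 0.15 for Exosc4-201, 0.06 for Exosc7-201, 0.01 for Exosc8-201, 0.06 for Exosc9-201 and 0.02 for Exosc10-201, and those of Exosc7-201, Exosc8-201, Exosc9-201 and Exosc10-201 fell below 0 with median-ratio scaling.

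The splicing of an intron was measured as the summed TPM of isoforms that splice it at its exact sites relative to that of all other isoforms that span it. The second sum holds isoforms that retain the intron and isoforms that splice the region at another site, so a lower ratio can come from either. Of 106 annotated introns of the members, 18 lie within an exon of another isoform and 16 of these were tested. In limma 0 of the 16 passed the adjusted threshold, where 0.0566% of all 8839 tested introns did, and 1 had an unadjusted p under 0.05, where 6.32% of all introns did.

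The minor intron of Exosc2 was retained in Exosc2-205 alone, which made up 31.1%, 25.4% and 24.9% of the TPM of isoforms that splice or retain it in mutants, against 13.9%, 15.7% and 12.1% in controls. Each mutant library was above each control library, and the means were 27.1% ± 3.47 in mutants and 13.9% ± 1.76 in controls (SD, n = 3 each). The log2 ratio of splicing to retaining isoforms differed by −1.13 (adjusted p = 0.38 by limma). Exosc2-202, which splices the same 5′ site to the acceptor 3 bases upstream, also spans the intron without splicing it exactly. With Exosc2-202 counted beside Exosc2-205, as in the ratio tested over all introns, the share not spliced at the exact sites was 32.6%, 29.8% and 28.2% in mutants, against 14.5%, 17.4% and 13.5% in controls. That log2 ratio differed by −1.21 (SE 0.17), with an adjusted p of 0.20 by limma over all introns, and by −1.33 to −0.82 under the alternatives, with adjusted p-values of 0.12 to 0.90. This intron carries the unadjusted p under 0.05 (limma, 0.00037), and it was known from earlier results of these data to stand out. Isoforms that splice it summed to 4.55, 5.06 and 4.04 TPM in mutants, against 5.20, 5.09 and 6.55 TPM in controls. These sums are without overlap, though those of the second mutant and the second control library are nearly equal.

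Among all 8839 tested introns, 1.35% had a log2 ratio difference at or below that of the Exosc2 intron. The 44 tested introns with the minor motifs had a median of −0.39, beside 0.02 for all tested introns, and 3 of them lay below the Exosc2 value. Carried into Exosc2-205, the reading frame of Exosc2-201 met a stop codon at base 181 of the retained intron, after 202 of its 293 codons, with 3 exon junctions downstream of the stop. An antisense gene, Gm13427 (chr2:31676364-31688469), covers 304 of the 763 bases of the intron with an exon. It had 0.165, 0.208 and 0.227 TPM in mutants, against 0.288, 0.243 and 0 TPM in controls. Whether reads were shared between Gm13427 and Exosc2-205 was not tested, since the strand setting of the quantification is not known.

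The minor intron of Exosc5 was retained, in Exosc5-202, in 16.2%, 13.5% and 16.5% of the TPM of the isoforms that span it in mutants, against 11.3%, 13.1% and 12.4% in controls. The groups did not overlap, though the second mutant and second control library were close, and the means were 15.4% ± 1.64 in mutants and 12.3% ± 0.895 in controls (SD, n = 3 each). The log2 ratio differed by −0.37 (SE 0.16, adjusted p = 0.80 by limma), and 12.5% of all tested introns lay at or below this value. Of the 44 with minor motifs, 23 lay below it. Exosc5-202 holds 4 contiguous introns of Exosc5-201, so the minor intron and its neighbours cannot be told apart by these isoforms. Introns 2, 4 and 5 of Exosc5-201 also had log2 ratio differences of −0.37, and for intron 2 the isoforms that do not splice it exactly include Exosc5-205, which uses another acceptor. In Exosc5-202 the frame of Exosc5-201 met a stop codon at base 54 of intron 2, after 105 of 235 codons and before the minor intron, with 0 exon junctions downstream.

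The remaining tested introns of members, 6 in Exosc8, 3 in Exosc9, 1 in Exosc10 and an alternative of intron 2 in Exosc5, overlapped between the groups. Those of Exosc8, Exosc9 and Exosc10 had log2 ratio differences of −0.19 to 0.98. Exosc9 intron 11 (chr3:36565297-36565428), with the highest value, was retained at 8.99% ± 5.48 in mutants and 17.5% ± 9.42 in controls (SD, n = 3 each), and it lies where the opposite-strand cyclin gene Ccna2 overlaps Exosc9. In all, 5 of 16 member introns had a lower ratio in mutants without overlap, of which 4 share Exosc5-202, and 0 had a higher ratio without overlap, beside 5.97% and 6.77% of all tested introns.

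**Figure D5:**
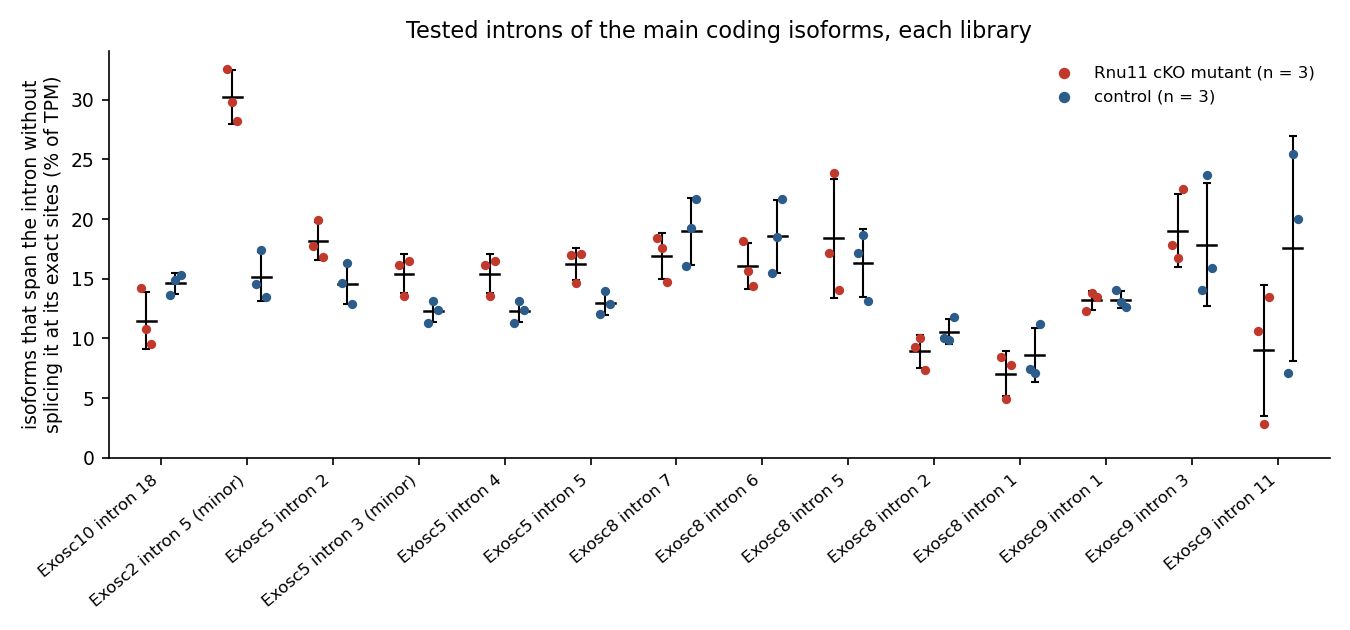
Isoforms that span an intron without splicing it at its exact sites, as a percentage of the TPM of all isoforms that span it (vertical axis), for the 14 tested introns found in the main coding isoforms of members (horizontal axis), in 3 mutant libraries (red, left) and 3 control libraries (blue, right), with mean (bar) and SD (whiskers). The minor intron of Exosc2 stands at 30.2% in mutants and 15.2% in controls, which counts Exosc2-202 with the retaining Exosc2-205, and the 4 Exosc5 introns share 1 retaining isoform.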

How the data were processed

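Rnu11 cKO and control testes gave 3 libraries each, taken as 1 animal each because the design text speaks of animals. Libraries were stranded, rRNA-depleted total RNA per the labels' protocols, and the submitters' processing notes name HISAT2 and GRCm38. No source used here names the quantification tool, its strand setting or its annotation. The values the authors deposited are TPM estimates for genes and isoforms of each library, and counts were not used. The authors also deposited tables of group averages and log2 fold changes, which were not used for the results.

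Genes and isoforms averaging at least 1 TPM were tested on log2(TPM + 1) with limma 3.58.1 in R 4.3.3 (eBayes with trend, two-sided, Benjamini-Hochberg over the whole table, threshold 0.05). This scale understates changes near 1 TPM. Shares (isoform over the other isoforms of genes of at least 5 TPM, 5% to 95% of the gene) and intron ratios (isoforms that splice the exact intron over other isoforms that span it, both averaging at least 0.5 TPM) were tested as log2 ratios with 0.1 added, without trend. Exact permutation of 3 against 3 cannot go below 0.1, so p-values rest on spread pooled across features. GENCODE M21 matched 141429 of 142647 isoforms and 53388 of 55353 gene symbols. A minor intron had at least 60 bases, ended in AG or AC, allowed 1 mismatch in the last 6 of the 8 bases at the 5′ splice site, and had the last A of the branch site 8 to 30 bases from its end. Members, lists and markers were chosen with earlier results of these data known. The genes named were Rnu11, all members and, of the partners, the 2 associated nucleases and those without overlap. The isoforms given with a log2 difference were the first annotated coding isoform of each member and those without overlap, together with the TPM or share of those that bear on the minor introns. Each fit was tested on simulated data. Alternatives were other pseudocounts, filters and scalings, the trend, a replicate block, a ratio over retaining isoforms only, other choices of introns, and each library left out. Tables and figures were made in Python 3.11.15 with pandas 2.3.3 and with matplotlib 3.10.9.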

Additional observations from a re-analysis of the deposited data

How the results depend on the processing

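No member gene, isoform, share or intron passed the adjusted threshold under any alternative run, and the median log2 difference of the members stayed between −0.09 and 0.12. The number of genes called, 5 as reported, was 3 with a filter of 5 TPM, with median-ratio scaling, with protein-coding scaling or with no trend, 0 with no filter or with the replicate block, 8 with a pseudocount of 0.1, and 2 to 8 with a library left out. The 6 isoforms called became 11 with a pseudocount of 0.1, 0 with the replicate block and 2 to 11 with a library left out. The 4 shares called became 0 with a trend or the replicate block and 2 to 9 with a library left out, and the 5 introns called became 2 with the replicate block and 3 to 6 with a library left out. Deviations from the group means correlated at −0.07, 0.03 and 0.08 between same-numbered libraries of the groups, and at −0.16 to 0.12 between differently numbered ones. No label says what the numbers mean, and so few libraries cannot show whether they mark pairs.

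Small differences changed sign. With median-ratio scaling the log2 differences were −0.057 for Exosc2, −0.096 for Exosc7, −0.057 for Exosc8, −0.043 for Exosc9, −0.032 for Exosc7-201, −0.088 for Exosc8-201, −0.022 for Exosc9-201 and −0.075 for Exosc10-201. With protein-coding scaling they were −0.0056 for Exosc1, −0.086 for Exosc2, −0.13 for Exosc7, −0.088 for Exosc8, −0.072 for Exosc9, −0.022 for Xrn1 and −0.026 for Dis3l2. Setting splicing isoforms against retaining isoforms only gave −0.086 for the alternative of Exosc5 intron 2. With a library left out, the values ran from −0.029 to 0.13 for Exosc2, from −0.12 to 0.12 for Exosc5, from −0.16 to 0.12 for Exosc7, from −0.078 to 0.11 for Exosc8, from −0.074 to 0.23 for Exosc9 and from −0.090 to 0.063 for Dis3. For isoforms they ran from −0.17 to 0.075 for Exosc5-201, from −0.071 to 0.14 for Exosc7-201, from −0.078 to 0.11 for Exosc8-201, from −0.13 to 0.30 for Exosc9-201 and from −0.047 to 0.082 for Exosc10-201. For introns they ran from −0.27 to 0.55 for the alternative of Exosc5 intron 2, from −0.39 to 0.063 for Exosc8 intron 5, from −0.080 to 1.55 for its alternative, from −0.022 to 0.056 for Exosc9 intron 1 and from −0.38 to 0.074 for Exosc9 intron 3. The scalings divide each library by its own factor, and the cause of the other changes was not tested. TPM keeps no depth, so no counting error could be given, and Exosc2-205 lies near 1 TPM.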
